A study of Homo sapiens with 72 samples.

Results

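The mRNAs that remained at a higher level when translation was blocked were examined in A375 cells, an established human melanoma line with an activated BRAF kinase. The 6 libraries compared were chosen from 72 by their labels. They were 3 libraries of cells treated for 3 h with triptolide alone (pQ T) and 3 of cells treated for 3 h with triptolide and cycloheximide (pQ TCHX). All 6 came from cells kept for 18 h in a control medium that contained glutamine (pQ). Triptolide (spelled tryptolide in the labels, 25 µM) stops transcription and was present in both arms, and cycloheximide (100 µg/ml) stops translating ribosomes and was present in the TCHX arm only. RNA was taken from the cytoplasmic fraction, and QuantSeq libraries read the 3′ end of polyadenylated RNA. The rest of the series held the 0 h and 5 h libraries of the same cells, cells without glutamine, and cells given a siRNA against CTU2 or the control siRNA siGL2. Replicates were numbered 1 to 3 in the labels, which do not say whether they were separate cultures, so p-values measure the spread between these samples.

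Many mRNAs are destroyed while they are being translated, which is called translation-dependent decay (TDD). Codon content read by slow ribosomes, premature stop codons recognised by the nonsense-mediated decay pathway, and AU-rich elements that recruit deadenylases are known routes, and several of them need a moving ribosome. After a transcription block, an mRNA whose decay needs translation is left at a higher level with cycloheximide than without it.

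The 3 T libraries held between 8762978 and 10013577 counts and the 3 TCHX libraries between 10849043 and 11992511, so that every TCHX library was deeper than every T library. Counts for at least 1 read were found for 16002 to 17119 gene names per library. Of the libraries used for comparison, the pQ TCHX 0 h library of replicate 3 stood apart, with 19940 gene names detected. Both 5 h libraries of replicate 3 were shallower (7209372 and 7908385 counts) than those of replicates 1 and 2. They also differed from those after scaling, as given with the 5 h results. Because most mRNAs fall after triptolide, counts were scaled to 81 genes chosen as stable over time in the medium experiment, and these scaled values are called normalised counts below. All differences between arms are therefore relative to those genes, and in such bulk libraries fewer cells and less RNA per cell cannot be told apart. Melanocyte lineage mRNAs were present, with SOX10 at 119 to 253 CPM, MITF at 195 to 322 CPM and S100B at 340 to 389 CPM (counts scaled to an equal library total). Of other lineage markers, DCT was at 70.5 to 108 CPM and PMEL at 2.25 to 6.15 CPM. MLANA and TYR, which also mark this lineage, and PRAME, a melanoma marker, had at most 16 counts in a library. The 8 markers of leukocytes, epithelium, keratinocytes, fibroblasts, endothelium and liver had at most 5.

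At 3 h, 1284 of 12265 tested genes (10.5%) were higher with cycloheximide and 215 (1.75%) were lower (edgeR quasi-likelihood test with the replicate number as a block, Benjamini-Hochberg adjusted p under 0.05). Of the higher genes, 471 differed by at least 2-fold and 133 by at least 4-fold. Only 13 of the lower genes differed by at least 2-fold. The rises therefore carried most of the large differences. All 3 TCHX libraries lay above all 3 T libraries for 2019 genes (16.5%) and below them for 470 (3.83%). The median log2 difference over all tested genes was 0.05, and in the same-numbered pairs it was 0.05, 0.02 and 0.11.

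The falls were less firm than the rises. Without the replicate block, 716 genes were higher and 13 lower, and all of these were among those called with it. With TMM scaling, which centres the typical gene on no change, 1133 were higher and 643 lower, so the share of calls that were falls depended on the scale. Without replicate 3, 881 were higher and 112 lower.

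**Figure D1:**
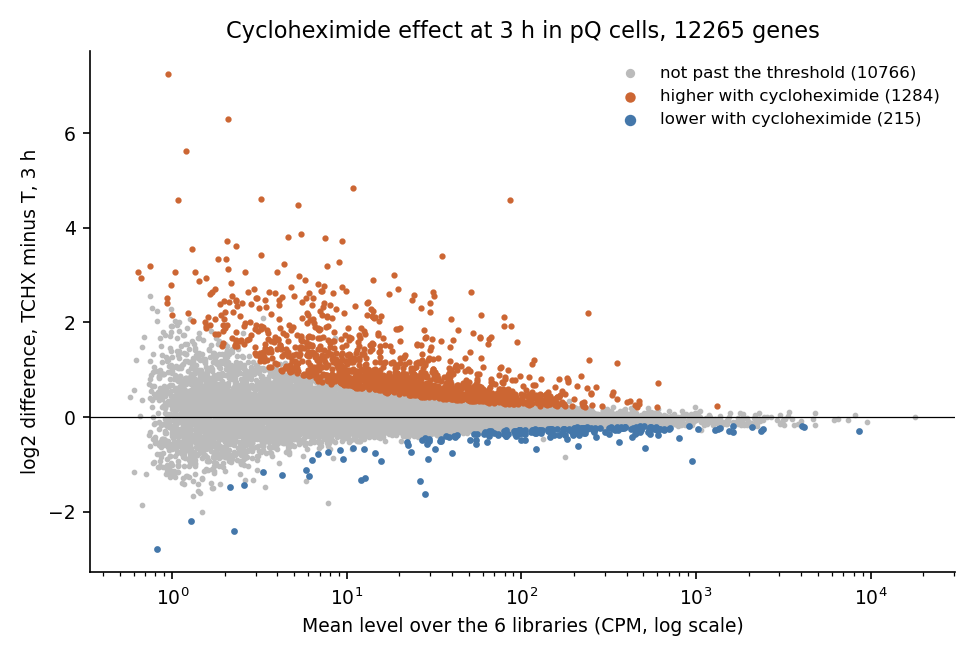
Each point is a tested gene, with its mean level over the 6 libraries (CPM, log scale) on the x axis and the log2 difference of TCHX minus T at 3 h on the y axis. The 1284 genes higher with cycloheximide (orange) reach far above 0, whereas the 215 lower genes (blue) lie close below it.

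The 12 largest rises included those of ADM, MAP3K14, DUSP6, GADD45B, SNAI2, KCNK5, BRF2, RGS3, HES1, JUN and ZNF324, all between 9.42-fold and 28.7-fold. Several encode regulators of signalling or transcription. All 12 also passed without the replicate block, and in each of them every TCHX library was above every T library. The 12 were chosen for large rises in these same libraries, so this is a description only.

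ADM, on chromosome 11 (chr11:10305073-10307397, GRCh38, plus strand), encodes the precursor of adrenomedullin, a vasodilator peptide. Its normalised counts were 6.51, 9.70 and 3.17 in the T libraries and 188, 154 and 198 in the TCHX libraries of replicates 1 to 3. The log2 difference was 4.84 ± 0.31 (SE, as for all such values below), with an adjusted p of 6.6e-10. ADM was almost gone from the T arm, with 7, 9 and 4 unscaled counts in its libraries.

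DUSP6 (chr12:89347235-89352501, minus strand), which encodes the phosphatase that dephosphorylates ERK, was the most abundant mRNA among the 12. Its normalised counts were 66.1, 63.6 and 46.7 with triptolide and 1320, 1363 and 1550 with cycloheximide added. The difference was 24.2-fold (log2 4.60 ± 0.13, adjusted p 1.4e-15), and the arms were far apart in every replicate.

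GADD45B (chr19:2476122-2478259, plus strand) encodes a stress protein that activates the MTK1 kinase. The T libraries had 3.72, 4.31 and 3.17 normalised counts and the TCHX libraries 59.5, 105 and 94.6, a log2 difference of 4.49 ± 0.38 (adjusted p 3.7e-08). MAP3K14 (chr17:45263119-45317029, minus strand) encodes NIK, the kinase of the non-canonical NF-kB pathway. It went from 1.86, 1.08 and 3.17 to 64.4, 44.96 and 51.2 normalised counts, and this 24.3-fold difference rests on 2, 1 and 4 unscaled counts in the T libraries.

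HES1 (chr3:194136148-194138732, plus strand), the transcriptional repressor downstream of Notch, had 72.6, 48.5 and 36.4 normalised counts in the T arm. With cycloheximide it had 603, 471 and 564, a log2 difference of 3.41 ± 0.17 (adjusted p 1.6e-11). JUN (chr1:58776845-58784048, minus strand), a subunit of the transcription factor AP-1, had 25.1, 9.70 and 8.72 without and 115, 178 and 130.4 with cycloheximide. T-arm values of JUN varied more than those of HES1, with replicate 1 the highest, and did not reach the lowest TCHX value.

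The other members of the group had few counts in the T arm. SNAI2, a repressor of E-cadherin, had 5.58, 6.46 and 5.55 and 78.2, 124 and 66.6 normalised counts (log2 3.86 ± 0.34). RGS3, which switches off G protein signalling, had 4.65, 4.31 and 4.75 and 52.95, 51.0 and 47.7 (log2 3.43 ± 0.43). The potassium channel gene KCNK5, the RNA polymerase III factor gene BRF2 and the zinc finger gene ZNF324 differed by log2 3.82 ± 0.42, 3.78 ± 0.31 and 3.24 ± 0.36.

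**Figure D2:**
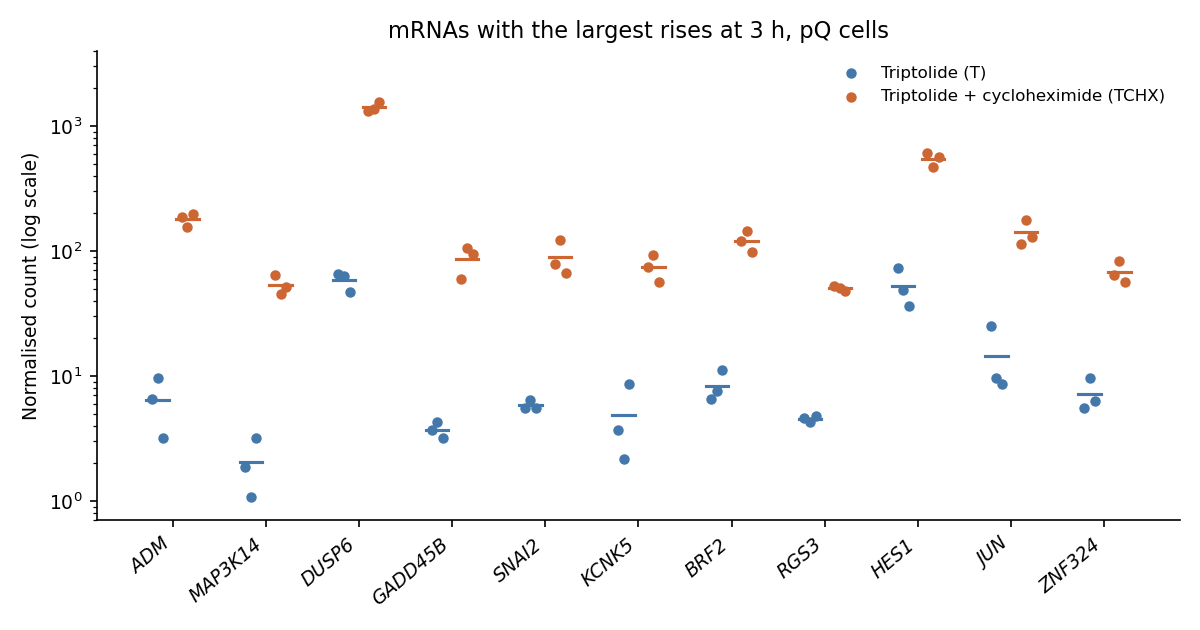
Normalised counts (log scale) at 3 h of 11 of the 12 mRNAs with the largest rises, with 1 point per library and a line at the mean of 3 replicates. The 12 were taken among called genes with a mean of at least 50 normalised counts in the higher arm. In each mRNA the TCHX points (orange) stand above the T points (blue), for example 1320 to 1550 against 46.7 to 66.1 for DUSP6.

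Immediate early genes, which are transcribed within minutes of a growth signal and whose mRNAs are short-lived, had the highest share of rises. Of 35 listed, 27 had enough counts at 3 h to be tested. Of these 27, 22 were higher with cycloheximide and 0 were lower, against 10.5% higher over all tested genes. The median log2 difference was 1.84. Without the block, 19 were higher. The shares over all tested genes, 10.5% higher and 1.75% lower, are the ones to set beside each list below. A gene could pass the count filter through the TCHX arm alone, whereas a member low in both arms at 3 h was not tested. The share of rises in a list of short-lived mRNAs may therefore be raised by the filter. IER2 differed by log2 2.56 ± 0.18, with normalised counts of 49.3, 94.8 and 95.9 in the T arm and 483, 434 and 477 in the TCHX arm. IER5, a nuclear immediate early protein, rose from 22.3, 36.6 and 26.9 to 184, 235 and 219, a 7.50-fold difference. KLF6, a zinc finger transcription factor, and FOSL1, an AP-1 subunit, differed by log2 2.30 ± 0.17 and 1.84 ± 0.15. FOSL1 had uneven replicates, with 148, 292 and 84.0 in the T arm, and did not pass without the block (adjusted p 0.114). JUND did not pass the test either way, at log2 0.37 ± 0.13 (adjusted p 0.0811).

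ERK feedback genes restrain or report the ERK pathway, which BRAF drives in these cells. Of 21 tested, 11 were higher and 1 lower, with a median of 0.78, and 8 and 0 were called without the block. PHLDA1, a pleckstrin homology-like domain protein gene, had 759, 1003 and 521 normalised counts in T and 3097, 3904 and 3197 in TCHX (4.59-fold, adjusted p 1.3e-09). The Sprouty genes SPRY4 and SPRY2, inhibitors of receptor tyrosine kinase signalling, differed by log2 1.60 ± 0.13 and 2.12 ± 0.20. CCND1, the cyclin D1 mRNA and an ERK target, stood at 1850, 2298 and 1936 and 2117, 1979 and 1946, and its adjusted p was 0.981.

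Feedback inhibitors of TGF-beta and the ID genes, which encode partners that block DNA binding by helix-loop-helix factors, had 9 of 15 tested members higher and 0 lower, with a median of 0.86, and 6 were higher without the block. BAMBI, a decoy receptor of the TGF-beta family, went from 76.3, 107 and 46.7 normalised counts to 417, 558 and 412 (log2 2.64 ± 0.16, adjusted p 3.9e-10). ID1 and ID2 differed by log2 1.88 ± 0.28 and 2.55 ± 0.38. ID2 replicates of the T arm ranged from 4.75 to 26.1, below the lowest TCHX value of 58.9.

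AU-rich elements are short U-rich stretches with the core AUUUA in 3′ untranslated regions (3′UTRs), and proteins of the ZFP36 family bind them and recruit deadenylases. The nonamer form was searched in the annotated 3′UTR of each gene, on the transcript strand, because it is the best known sequence of short-lived mRNAs of this kind. The first nonamer of 8 mRNAs that were higher with cycloheximide is shown in DNA letters from GRCh38, 5′ to 3′, with 10 bases on each side and the nonamer in capitals.
IER5 (chr1:181092443-181092471, plus strand): gtgtcttcctTTATTTATTtatttattta
RGS3 (chr9:113597365-113597393, plus strand): actttgagttTTATTTATTtaaatagtag
DDIT3 (chr12:57516616-57516644, minus strand): gattgtacatTTATTTATTactgtcccta
GDF15 (chr19:18389054-18389082, plus strand): tataagtctgTTATTTATTattaatttat
PLK2 (chr5:58454066-58454094, minus strand): aataaactttTTATTTATTacagcccaaa
PMAIP1 (chr18:59903961-59903989, plus strand): aggaataattTTATTTATTttgcctattt
ZFP36L1 (chr14:68788077-68788105, minus strand): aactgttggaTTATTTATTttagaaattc
ZFP36L2 (chr2:43223448-43223476, minus strand): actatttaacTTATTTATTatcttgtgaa

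In IER5 the motif runs on into further repeats, with 3 overlapping nonamers in the 3′UTR, and each of the other 7 has 1. Most of the higher genes lacked the motif. It was found in 163 of 1223 higher genes with an annotated 3′UTR (13.3%), in 18 of 126 (14.3%) that rose at least 4-fold and in 10.1% of the 10798 tested genes with a 3′UTR. Per length, the nonamer occurred 8.46 times per 100 kb of 3′UTR in the higher genes and 6.69 times in all tested genes. In the genes that rose at least 4-fold it occurred 13.7 times per 100 kb, a value that rests on 18 genes with the motif. These differences were not tested. The median 3′UTR was 1517 bases in the higher genes, 1204.5 in those at least 4-fold higher and 1417 in all tested genes. Of the 12 largest rises as chosen above, RGS3 was the only one with the nonamer in its annotated 3′UTR.

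Of 20 AU-rich cytokine and growth factor mRNAs, 8 had enough counts at 3 h to be tested. Of these, 3 were higher and 0 lower, and 1 was called without the block. GDF15, a stress-induced cytokine, had 2751, 4614 and 4344 normalised counts in T and 4821, 5608 and 8967 in TCHX (log2 0.71 ± 0.12). CSF1, a macrophage growth factor, differed by 0.88 ± 0.28. GDF15 (adjusted p 0.129) and CSF1 (0.244) did not pass without the block. VEGFA was at log2 0.51 ± 0.20 (adjusted p 0.106).

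Genes for decay adaptors and deadenylases, the proteins that carry out much of this decay, had 5 of 24 tested members higher and 0 lower, and 3 were called without the block. The called genes with the smallest p were the AU-rich element binders ZFP36L1 and ZFP36L2 and the deadenylase adaptors BTG1 and TOB2. ZFP36L1 went from 309.8, 401 and 239 to 1070, 1133 and 1332 normalised counts (log2 1.92 ± 0.15), and ZFP36L2 from 487, 653 and 220.3 to 854, 1080 and 734 (log2 1.07 ± 0.16). ZFP36L2, whose T libraries were uneven, did not pass without the block (adjusted p 0.224). BTG1 and TOB2 differed by 0.81 ± 0.10 and 1.37 ± 0.20. CNOT7, a catalytic deadenylase subunit, was at log2 -0.20 ± 0.07 and did not pass (adjusted p 0.0617).

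The amino acid stress response is run by the transcription factor ATF4, whose mRNA carries upstream reading frames. In its list, 10 of 17 tested genes were higher and 1 lower, with a median of 0.48, and 7 and 0 were called without the block. ATF4 itself had 1133, 1196 and 1240 normalised counts in T and 2280, 1732 and 2006 in TCHX, a 1.68-fold difference (adjusted p 2.3e-06). DDIT3, which encodes CHOP, went from 28.8, 33.4 and 44.4 to 191, 172 and 204 (log2 2.41 ± 0.21). CEBPB, a bZIP transcription factor, and PPP1R15A, the subunit that directs dephosphorylation of eIF2α, differed by 1.84 ± 0.16 and 1.65 ± 0.16.

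GADD45A, GADD45B, ATF4, GAS5 and TBL2 are known targets of nonsense-mediated decay. As a list of 5 they gave 4 higher and 0 lower, and 3 were higher without the block. The list was chosen with earlier results of these libraries known, so it is not independent evidence of their direction. GADD45A, a p53 target that halts the cell cycle, had 90.2, 87.3 and 46.0 and 259, 280.2 and 252 normalised counts (log2 1.87 ± 0.19). GAS5, a snoRNA host transcript, had 629.9, 757 and 625 and 824, 922 and 809 (log2 0.35 ± 0.09) and did not pass without the block (adjusted p 0.217). TBL2 had 195, 256 and 170.3 and 203, 232 and 215, with overlapping arms and an adjusted p of 0.797.

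Among nonsense-mediated decay factors, several of which are known targets of the pathway they serve, 7 of 20 tested were higher and 0 lower, and 3 were called without the block. PNRC2, a decapping partner of UPF1, went from 178, 151 and 80.8 to 355, 405 and 249 normalised counts (log2 1.33 ± 0.15). SMG9 and SMG8, which regulate the kinase SMG1, differed by 1.15 ± 0.17 and 0.94 ± 0.14. UPF1, the helicase at the centre of the pathway, differed by 0.38 ± 0.08 with the block (adjusted p 0.00322) and did not pass without it (adjusted p 0.131).

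SnoRNA host transcripts, spliced RNAs with short reading frames, had 6 of 24 higher and 1 lower, and 3 and 0 without the block. SNHG7 had by far the smallest p of them, with 252, 289.8 and 267 normalised counts in T and 952, 953 and 742 in TCHX (log2 1.70 ± 0.11, adjusted p 6.6e-10). SNHG1 and SNHG15 differed by 0.43 ± 0.09 and 0.92 ± 0.23, and SNHG25, the member called lower, by -0.26 ± 0.06. SNHG1 and SNHG25 did not pass without the block. Among SR proteins and CLK kinases, which control splicing and whose genes make isoforms with poison exons, 6 of 18 were higher and 1 lower, and 3 and 0 without the block. CCNL1, cyclin L1, went from 66.1, 91.6 and 85.6 to 429, 474 and 399.5 (log2 2.42 ± 0.15), and CLK1 from 10.2, 19.4 and 14.3 to 77.4, 103 and 124 (log2 2.81 ± 0.29). CCNL2 and SRSF1 differed by 0.47 ± 0.08 and 0.31 ± 0.07, and SRSF1 did not pass without the block (adjusted p 0.416). A 3′ end count does not separate isoforms.

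p53 target genes had 7 of 22 higher and 1 lower, and these calls were as many without the block. AEN, a p53-induced exonuclease, had 224, 259 and 229 normalised counts in T and 790.2, 808 and 695 in TCHX (log2 1.69 ± 0.11). The kinase gene PLK2 and the phosphatase gene PPM1D differed by 2.67 ± 0.27 and 2.10 ± 0.26. MDM2, the ubiquitin ligase of p53, was at 581, 597 and 559 and 636, 665 and 585 and did not pass (adjusted p 0.507). In the BCL2 family, 3 of 16 were higher and 0 lower, and these were the anti-apoptotic MCL1 (log2 1.66 ± 0.12) and the pro-apoptotic BBC3 (2.16 ± 0.27) and PMAIP1 (0.88 ± 0.19). MCL1 had 229.8, 393 and 212 and 859, 963 and 739 normalised counts.

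NF-kB feedback genes had 3 of 14 higher and 0 lower, and 2 were called without the block. NFKBIA, which encodes the inhibitor IkBα, went from 13.03, 22.6 and 14.3 to 119.8, 123 and 93.9 normalised counts (log2 2.76 ± 0.27). IRF1, a transcription factor of the interferon response, went from 5.58, 17.2 and 21.4 to 91.2, 91.4 and 84.1 (log2 2.62 ± 0.33), and NFKBIE differed by 0.68 ± 0.18. NFKBIE did not pass without the block (adjusted p 0.0887).

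ZNF zinc finger genes, a large family that consists mainly of DNA-binding repressors, gave 111 higher and 1 lower of 319 tested (34.8% higher), with a median of 0.61. The list held 478 names, and the others had too few counts at 3 h to be tested. Without the block, 76 were higher and 0 lower. ZNF503 had 64.2, 72.2 and 50.7 normalised counts in T and 355, 345 and 329 in TCHX (log2 2.47 ± 0.16). ZNF408 went from 14.9, 14.0 and 20.6 to 122, 102 and 94.6 (log2 2.66 ± 0.28), and ZNF830 and ZNF281 differed by 2.10 ± 0.20 and 1.66 ± 0.16. Counts of similar zinc finger genes could have been divided among them.

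Cell cycle lists had small differences. DNA replication and repair genes had 2 of 40 higher (5%, below the 10.5% over all tested genes) and 1 lower. The higher ones were the homologous recombination genes XRCC2 (0.84 ± 0.13) and BRCA2 (0.40 ± 0.12). The lower one was the helicase subunit MCM7 (-0.20 ± 0.06), and only XRCC2 passed without the block. Mitosis genes had 5 of 26 higher and 0 lower, all by less than 0.5 on the log2 scale, and 0 were called without the block. The kinase AURKA had 1124, 1315 and 1113 and 1621, 1644 and 1492 normalised counts (log2 0.42 ± 0.08).

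Of 7 melanocyte lineage and melanoma markers tested, 2 were higher and 1 lower, with a median of -0.03, and 2 and 0 without the block. The transcription factors SOX10 and MITF were the higher ones. SOX10 went from 1049, 1144 and 1201 to 1976, 2004 and 2024 normalised counts, and MITF from 1902, 1843 and 1632 to 2465, 2565 and 2574. S100A1, a calcium-binding protein gene, was lower (-0.34 ± 0.08) and did not pass without the block (adjusted p 0.181).

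**Figure D3:**
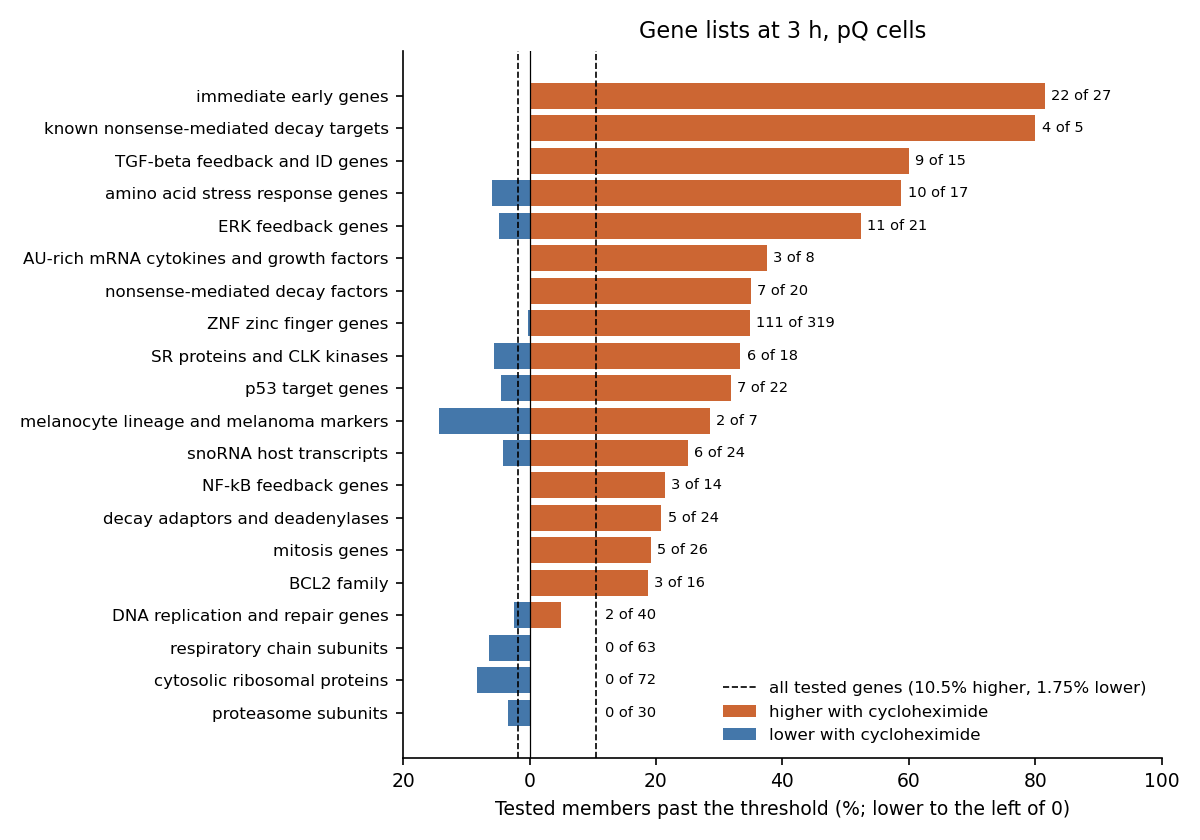
Bars give the share (%) of tested members of each gene list that were higher (orange, right) or lower (blue, left) with cycloheximide at 3 h, with the count higher of those tested beside each bar. Dashed lines mark the shares over all 12265 tested genes, 10.5% higher and 1.75% lower, and immediate early genes stand farthest out with 22 of 27.

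The mRNAs of abundant cell machinery were not among the rises. Of 72 cytosolic ribosomal protein genes tested, 0 were higher and 6 lower, with a median of -0.07. Of 63 respiratory chain genes, 0 were higher and 4 lower, and of 30 proteasome genes, 0 were higher and 1, PSMD3 (-0.26 ± 0.06), was lower. PSMD3 did not pass without the block (adjusted p 0.453). NDUFC2, a complex I subunit, had 977, 1088 and 934 normalised counts in T and 697, 724 and 725 in TCHX (log2 -0.48 ± 0.09) and was the 1 respiratory chain gene called without the block. None of the 6 ribosomal protein genes was.

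The most abundant genes called were lower by small amounts. GAPDH, the glycolytic enzyme mRNA, had 78502, 88490 and 79203 normalised counts in T and 64108, 73552 and 63918 in TCHX, 0.818 times the T level. RPS3, RPL30 and RPL27A, of the cytosolic ribosome, stood at 0.819, 0.839 and 0.875 times, and the mitochondrial ribosomal RNA RNR1 at 0.861 times. None of these 5 passed without the block, at adjusted p from 0.29 to 0.72.

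The largest falls were in small non-coding RNAs. TRNC, TRNM, TRNS2 and TRNE are mitochondrial tRNAs, RNY4 is a Y RNA, and CBWD2 is a member of a gene family with near-identical copies whose reads may be divided among them. TRNM had 221, 289.8 and 452 normalised counts in T and 76.6, 115 and 193 in TCHX (log2 -1.35 ± 0.15, adjusted p 1.2e-06). TRNC had 201, 191 and 642 and 45.6, 62.2 and 254 (log2 -1.63 ± 0.16). Replicate 3 of TRNC was high in both arms, so the arms overlapped, and the gene did not pass without the block (adjusted p 0.624). TRNS2 and TRNE also overlapped and did not pass without it, and RNY4 (-1.24 ± 0.28) and CBWD2 (-1.12 ± 0.28) did not overlap between arms. Over the mitochondrial tRNA names, a group chosen after its values were seen, 13 of 21 tested were lower and 0 higher, and 4 were lower without the block. Mitochondrial tRNAs lack long poly(A) tails, so 3′ end libraries primed on poly(A) capture them only indirectly.

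The genes that were higher differed in structure from all tested genes, as annotated in GENCODE release 44. Exon, codon and coding length values used genes with an annotated reading frame, 1222 of 1284 higher and 10779 of 12265 tested genes. The median number of exons was 6 in the higher genes, against 9 over all tested coding genes, and it was 4 in those that rose at least 4-fold. Single-exon genes made up 4.99% of the higher genes, 8.8% of those at least 4-fold higher and 1.84% of all tested coding genes. Without the ZNF genes the higher set still had a median of 7 exons, against 10. The median share of codons ending in G or C (GC3) was 58.0% in the higher genes and 57.5% in all tested genes. Coding length was also close, with medians of 1578 and 1422 bases. In the lower genes the median GC3 was 70.8% and the median 3′UTR 457.5 bases, but these falls include many that were not called without the block. These values are descriptions, without a test.

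The higher and lower genes were then followed in libraries that took no part in choosing them. In siGL2 cells, which had received the control siRNA 42 h before treatment, cycloheximide at 3 h gave 1519 genes higher (12.5% of 12121) and 485 lower (4%), and without the block 806 and 26. Of the 1284 genes higher in pQ cells, 1271 were tested there. Of these, 914 (71.9%) were higher in siGL2 cells and 0 were lower, and they made up 60.2% of the siGL2 list. The median log2 difference in siGL2 cells was 0.67 for these genes and 0.03 for all tested genes. Of the genes lower in pQ cells, 42 of 212 (19.8%) were lower and 3 higher in siGL2 cells, and the 42 made up 8.66% of the siGL2 list. DUSP6 and HES1 differed by log2 4.73 and 2.82 in siGL2 cells, BAMBI by 2.16 and SNHG7 by 1.90. Among the 6 largest falls in pQ cells, TRNC (-0.98) and TRNM (-0.76) were also lower in siGL2 cells. TRNS2 (-0.11), TRNE (0.17), RNY4 (-0.69) and CBWD2 (-0.57) did not pass there.

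The genes higher with cycloheximide were short-lived without it. In the siGL2 T libraries, which did not enter the choice of genes, a median of 40.4% of the 0 h level was left after 3 h (interquartile range 25.8% to 55.1%). The median over all tested genes was 73.3% (59.2% to 83.3%), and over the genes lower with cycloheximide 87.1%. The pQ libraries themselves gave 35.1% in the T arm and 61.3% in the TCHX arm for the higher genes, and 64.4% and 66.3% for all tested genes. These pQ values share libraries with the choice of genes and are a description. The TDD index, the TCHX minus T level at 3 h divided by the 0 h level, had a median of 0.243 in the higher genes, 0.0238 in all tested and -0.15 in the lower genes.

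**Figure D4:**
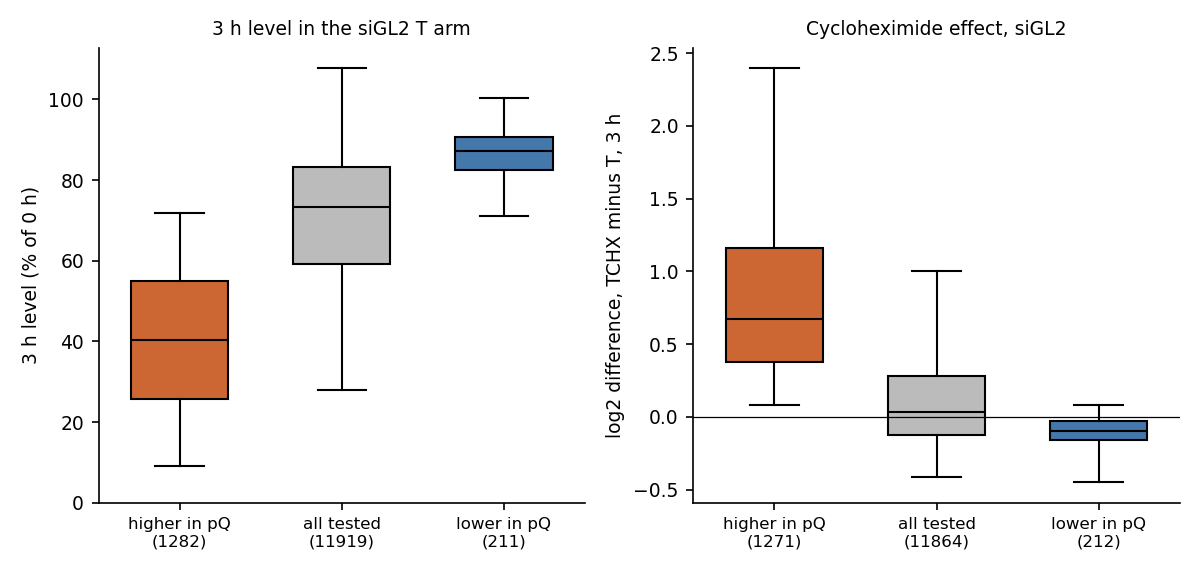
Values in siGL2 cells, which took no part in choosing the genes, for genes higher in pQ cells, all tested genes and genes lower in pQ cells, with the number of genes under each box. The left panel gives the 3 h level in the T arm (% of 0 h) and the right panel the log2 difference of TCHX minus T. Boxes span the quartiles with the median as a line, whiskers reach from the 5th to the 95th percentile, and medians on the left are 40.4%, 73.3% and 87.1%.

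At 0 h, when both drugs had just been added, 0 of 12398 genes (0%) passed between the arms (edgeR), 438 had an unadjusted p under 0.05, and without the block 0 passed and 233 had such a p. The TCHX 0 h library of replicate 3 had fewer DUSP6 normalised counts than the others, with 4260, 3860 and 1861 in the TCHX 0 h libraries and 4271, 4166 and 4077 in those of the T arm. Without replicate 3, 1 gene was higher at 0 h and 0 were lower, and without replicate 2, 30 were higher and 60 lower. The shares left of the higher genes without replicate 3 were 35.1% in T and 60.3% in TCHX, and with the T 0 h libraries alone as the reference 34.2% and 59.2%.

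At 5 h, 2088 of 12156 genes were higher with cycloheximide (17.2%) and 242 lower (1.99%). Without the block 361 were higher and 4 lower, and without replicate 3, 1865 and 465. Replicate 3 stood apart at 5 h in both arms after scaling. For example, RPS29 had 75019, 66249 and 18135 normalised counts in T and 59242, 59667 and 21485 in TCHX. GAPDH went the other way, with 89332, 93897 and 148711 in T and 81038, 86009 and 112543 in TCHX. Of the 1284 genes higher at 3 h, 1263 were tested at 5 h. Of these, 1041 (82.4%) were higher and 0 lower, and they made up 49.9% of the 5 h list, with a median log2 difference of 1.16. The 3 h and 5 h comparisons share no library.

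DUSP6 went on falling in both arms between 3 h and 5 h, and SNHG7 did so in the T arm. DUSP6 had 19.5, 32.3 and 22.3 normalised counts in T and 278, 452 and 337 in TCHX at 5 h, and the log2 difference between arms was 4.60 at 3 h and 3.84 at 5 h. The change in this difference did not pass the interaction test (-0.76 ± 0.25, adjusted p 0.144). SNHG7 at 5 h had 128, 121 and 38.8 in T and 869, 892 and 318 in TCHX, with replicate 3 the lowest in both arms. In TCHX at 3 h it had 952, 953 and 742, so the larger fall in that arm was in replicate 3 only. The log2 difference of SNHG7 was larger at 5 h (2.87) than at 3 h (1.70), by 1.16 ± 0.18 (adjusted p 0.000116). That of BAMBI was larger by 2.13 ± 0.32 (adjusted p 7.8e-05). For SOX10, the TCHX libraries stayed near their 3 h level, at 1865, 2038 and 1821, whereas those of the T arm fell to 391, 434 and 471.

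**Figure D5:**
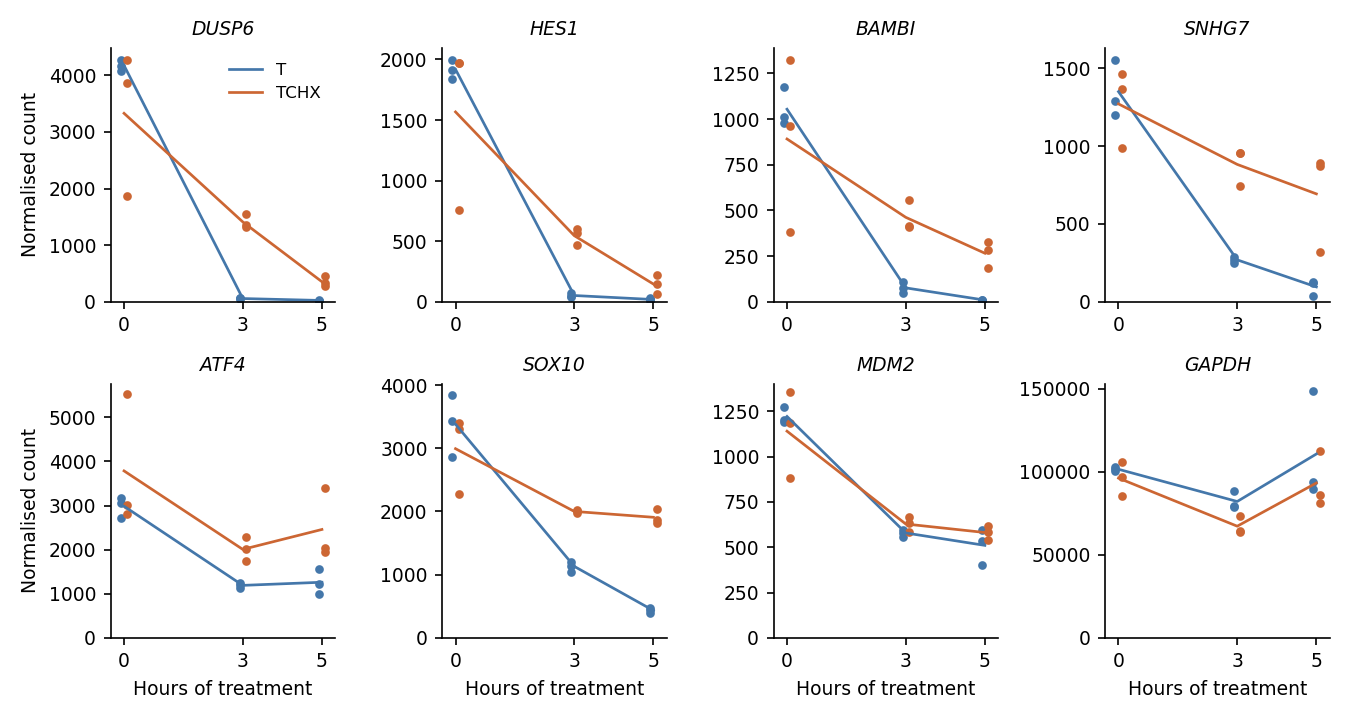
Normalised counts of 8 mRNAs in pQ cells at 0, 3 and 5 h of treatment in the T (blue) and TCHX (orange) arms, with 1 point per library and lines through the means of 3 replicates. For SOX10 the arms stand at 1049 to 1201 and 1976 to 2024 at 3 h, whereas for MDM2 they overlap.

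The cycloheximide effect, as the log2 difference of TCHX minus T, was compared between the 2 times with an interaction term. This log2 difference was higher at 5 h than at 3 h for 236 of 12856 genes (1.84%) and lower for 11 (0.0856%). A lower value can be a larger fall with cycloheximide. Without the block only 2 and 0 genes passed. SOX10 went from a log2 difference of 0.82 at 3 h to 2.15 at 5 h, and PHF23, a gene for a PHD finger protein, from 1.37 to 3.38. KLHL21, which encodes a ubiquitin ligase adaptor of mitosis, went from 1.55 to 3.21. INPP4B, a phosphoinositide phosphatase gene, was lower with cycloheximide by -0.35 at 3 h and by -1.49 at 5 h, and the 3 h call was lost without the block (adjusted p 0.210).

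Between siGL2 and pQ cells, the log2 difference at 3 h was higher in siGL2 for 9 of 12795 genes (0.0703%) and lower for 11 (0.086%). Without the block 0 genes passed. CDKN1B, the cyclin-dependent kinase inhibitor p27, went from 18.6, 34.5 and 12.7 to 94.5, 135 and 72.9 normalised counts in pQ cells, a log2 difference of 2.25 against 0.51 in siGL2 cells. The labels do not say whether pQ and siGL2 cells were handled together, and their columns share a name prefix within each replicate number. They were treated here as separate experiments, each scaled to its own stable genes. Condition and scaling therefore cannot be told apart here.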

How the data were processed

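The authors deposited unnormalised counts of reads per gene from QuantSeq 3′ libraries. The authors trimmed reads (fastp 0.20.1), mapped them to GRCh38.p13 (HISAT2 2.2.1) and counted them on NCBI gene models (HTSeq 0.13.5), per the submitters' processing notes and the study's methods. No step with molecular identifiers is given in the sources used here, so counts may include PCR copies. The table had 44659 gene names and 0 columns without a sample. Its gene names held no ERCC spike-in, so the spike-in was not used here.

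Stable genes were taken by the criteria of the study's methods, which do not say whether the rise is needed at 3 h and 5 h together, and a rise at either was chosen: CPM above 0.2 at 0 h, at least 1.1 times higher at 3 h or 5 h, and a 0 h CPM above 0.1 times the later one, for each condition, arm and replicate of an experiment. Of 82 such genes in the medium experiment, 81 gave size factors (197 of 198 for siGL2). Counts were tested in R 4.3.3 with edgeR 4.0.16 (filterByExpr, robust quasi-likelihood F-test, limma 3.58.1), with the replicate number as a block, since the study's linear model of the TDD index has a replicate term, on 6 libraries per comparison and 12 per interaction. SE is the log2 difference divided by the square root of F. Adjusted p-values are Benjamini-Hochberg values over all tested genes, with a threshold of 0.05. The scripts were tested on simulated data. The labels do not say what a replicate number marks. Deviations of same-numbered libraries correlated with 0.0897, 0.119 and 0.237 over 12265 genes, which are not independent. Pairing by number is therefore not established, and counts without the block are given beside those it changes. The TDD index and shares left used genes with a mean 0 h normalised count of at least 10, with the average over arms of the 0 h values in each replicate as reference.

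Named genes were the 12 largest rises and 6 largest falls among called genes with the same direction in all 3 pairs and at least 50 normalised counts in the higher arm, the 5 most abundant called genes, and per list up to 4 called genes with the smallest p and up to 2 abundant genes not called. The 5 listed nonsense-mediated decay targets and the 3 leading genes by p value, higher and lower, of each interaction were added. Not all are printed, and some are not reported here. Members, gene lists and tests were chosen with earlier results of these data known. Some genes belong to 2 lists. Alternatives were TMM, no block, DESeq2 1.42.0, other stable genes, other filters, a 1.5-fold test, an 18-library fit, subtraction of the 0 h difference and leaving out each replicate. Gene features came from the canonical transcripts of GENCODE release 44 (GRCh38), matched by symbol for 11548 of 12265 tested genes.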

Additional observations from a re-analysis of the deposited data

Results flagged for a closer look

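The effect of cycloheximide differed between times or between pQ and siGL2 cells, by the interaction tests, in the genes given here with the difference of log2 effects. For 5 h minus 3 h in pQ cells, the differences were 1.32 ± 0.13 (SE) for SOX10, 2.01 ± 0.20 for PHF23 and 1.66 ± 0.17 for KLHL21. They were negative for INPP4B (-1.14 ± 0.17), MAST2 (-1.61 ± 0.24) and DHX38 (-0.91 ± 0.17), and the 3 h call of INPP4B was lost without the replicate block (adjusted p 0.210). MAST2 and DHX38 did not pass at 3 h in pQ cells (log2 -0.25 ± 0.13 and 0.11 ± 0.09), and at 5 h they were lower with cycloheximide, at -1.86 and -0.80. For siGL2 minus pQ at 3 h, the differences were 0.61 ± 0.08 for PSMD3, 0.76 ± 0.11 for MRFAP1L1 and 0.54 ± 0.11 for ZKSCAN1. They were -1.73 ± 0.32 for CDKN1B and -1.02 ± 0.19 for CDKN1A. CDKN1A, the p53-induced inhibitor p21, was not past the threshold in pQ cells (log2 0.35 ± 0.14) and was lower with cycloheximide in siGL2 cells (-0.67). PSMD3 was lower with cycloheximide in pQ cells (-0.26) and higher in siGL2 cells (0.35). Without the replicate block, 2 genes in all passed the test between times and 0 the test between pQ and siGL2 cells.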

How the results depend on the processing

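For the 3 h effect in pQ cells (1284 higher, 215 lower), counts stayed within 1.5 times with no filter (1368 and 240) and a stricter filter (1170 and 244), whereas TMM scaling gave 643 lower. Without the replicate block 716 were higher and 13 lower. Stable genes that rose at both times (3 genes) gave 822 and 576, and those from the 18 pQ libraries (468 genes) 97 lower. The test against a 1.5-fold change gave 327 and 5, DESeq2 135 lower, the 18-library fit with the replicate block 646 and 10, and subtraction of the 0 h difference 658 and 21. Leaving out 1 replicate gave 881 to 1291 higher and 112 to 255 lower, with the fewest without replicate 3. The cause was not tested. Under TMM, lower counts were 1578 at 5 h in pQ, 915 in siGL2 at 3 h and 34 in the 5 h minus 3 h test. Without the block, higher and lower counts were 361 and 4 at 5 h, 806 and 26 in siGL2, 2 and 0 between times and 0 and 0 between pQ and siGL2. Leave-one-out ranges were 1415 to 1865 higher and 95 to 465 lower at 5 h, 0 to 60 in either direction at 0 h (1 to 30 higher), and 934 to 1381 higher and 178 to 514 lower in siGL2. They were 107 to 162 and 6 to 19 between times, and 5 to 6 and 2 to 13 between pQ and siGL2. The median TDD index of the higher genes (0.243) was 0.344 with TMM.

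Of 93 named genes, 69 kept direction and call without the block and 24 lost the call, 91 kept both under TMM and 88 under DESeq2. No call of a named gene changed sign. Of genes not called, CCND1 ranged from -0.10 to 0.10 on the log2 scale when 1 replicate was left out and was 0.076 with stable genes from the pQ libraries. TBL2 ranged from -0.046 to 0.20 and was -0.0096 with stable genes rising at both times. Same-numbered libraries were paired by number only. Between arms, each library's deviations correlated best with those of its own number (different numbers gave -0.141 to 0.0304), which is a hint from the data and not the design. Genes with too few counts at this depth were not tested.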
